A study of Mus musculus with 9 samples.

Results

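Imprinted genes that act on growth were followed across 3 structures of the embryonic mouse kidney. The set held 10 genes, Cdkn1c, Mest, Plagl1, Meg3, Igf2, Igf2r, Peg3, Grb10, Gnas and Impact, taken as every probe set whose only gene symbol in the platform annotation is one of these names. That gave 24 of the 22690 probe sets and 10 of the 12393 genes on the array. The genes were picked with differences between these structures already known, so their levels and differences are given as a description and carry no test. Where a member is said to pass or miss the threshold, this describes its place in the fit and is not a test of the member.

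Transcripts were measured on Affymetrix arrays in the renal vesicle, the earliest epithelial body of a nephron, in the s-shaped body, the folded stage that follows it, and in the collecting duct, the drainage tree that grows from the ureteric bud and served the submitters as the reference. All samples were wild-type embryos of strain 129 at E14.5, Theiler stage 22, of unknown sex, with 3 arrays for each structure. The structures were microdissected by morphology. Each renal vesicle and s-shaped body sample pooled 20 structures, whereas a collecting duct sample was not pooled, having a labelled pool size of 1. The RNA of every sample went through 2 rounds of amplification, and the spread between arrays is that between such samples.

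An imprinted gene is transcribed mainly from the copy inherited from a single parent, which is set by DNA methylation laid down in the egg or the sperm. Many imprinted genes act on fetal growth, and those expressed from the paternal copy often promote it while those expressed from the maternal copy often restrain it. In the set, Cdkn1c, Meg3, Igf2r and Grb10 are known as maternally expressed in most mouse tissues, Mest, Plagl1, Igf2, Peg3 and Impact as paternally expressed, and Gnas makes several transcripts with different parental rules. The arrays do not tell the parental copies apart, so every value is the sum of both.

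The markers bore out the labels only in part. The summed intensity of 7 podocyte markers was 58868 to 72055 in the s-shaped body, 5787 to 17132 in the renal vesicle and 583 to 658 in the collecting duct. For 10 collecting duct markers the sum was 37953 to 51080 in the duct, 2596 to 4716 in the renal vesicle and 1507 to 1568 in the s-shaped body. On that list Wnt11 was higher in the vesicle than in the duct (1.55, limma adjusted p = 0.0020), while Hoxb7 and Aqp2 did not pass in any comparison. The sum of 8 markers of early nephron epithelium was 15797 to 19131 in the renal vesicle, 1609 to 2401 in the duct and, for the s-shaped body, 7461 to 8403, and 7 of the 8 were lower in the s-shaped body than in the vesicle. Against the duct, 6 of the 8 were higher in the s-shaped body and 1, Wnt4, was lower. Wnt4 read 21.5 to 84.1 in the s-shaped body against 1148 to 1829 in the duct (-4.18, adjusted p = 3.1e-07). Pax8 differed from the duct by 0.06 (adjusted p = 0.85). Samples labelled s-shaped body thus had lower levels than the vesicle of 7 of the 8 genes of early nephron epithelium, and high levels of podocyte markers. Renal vesicle array 3 stood apart, with a podocyte sum of 17132 against 6352 and 5787 on arrays 1 and 2. Collecting duct array 2 stood apart in the erythroid sum, at 2505 against 165 and 219 on arrays 1 and 3. That excess lay in Hbb-y, at 2313 against 1.48 and 5.3. Alas2 read 6.04 on array 2 against 6.95 and 8.58, and Epor 126.58 against 105.7 and 185.93. The s-shaped body arrays also had higher levels than the renal vesicle of 10 of 11 stroma, 10 of 10 endothelium, 3 of 4 erythroid and 2 of 2 macrophage markers. Of all genes, 18.5% were higher. Some of these markers, such as Cdh5, Emcn, Icam2, Pdgfra, Tagln, Alas2 and Hba-x, passed the filter only through the s-shaped body arrays. Of 9 listed macrophage genes, 2 passed. The filter thus partly sets these fractions. Every comparison with the s-shaped body in the text, of members and of other genes, stands beside this difference, and its part in them was not tested.

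Between s-shaped body and renal vesicle, all 10 genes had the higher mean in the s-shaped body, from 0.06 for Igf2 to 4.53 for Cdkn1c (log2 difference, SE 0.13 and 0.30, n = 3 arrays each). The 3 s-shaped body arrays lay above the 3 renal vesicle arrays for 9 of the 10, against 26% of the 7998 genes tested, and Igf2 was the exception. No member showed the reverse order, against 26.9% of all genes. An adjusted p under 0.05 was reached by 8 of 10, all higher in the s-shaped body, against 18.5% of all genes in that direction and 36.3% in either. The median difference of the set was 0.74, and that of all genes was -0.03. Igf2 turned to -0.18 with median centring in place of quantile normalization and to -0.03 with no further normalization, and the other 9 kept their direction under both. Nothing is read from these shares, since the set was chosen with this contrast known.

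The collecting duct divided the set. Meg3, Igf2 and Peg3 were highest in the duct, whereas Mest, Gnas and Impact were lowest there. For renal vesicle against collecting duct, 2 of 10 were past the threshold as higher in the vesicle and 4 as lower, against 15.6% and 15.9% of all genes, or 31.5% in either direction. For s-shaped body against collecting duct, 5 were higher and 3 lower, against 16.9% and 15.9%, or 32.8% in either direction. Arrays did not overlap for 3 members higher and 4 lower in the vesicle than in the duct, against 21.2% and 22.1% of all genes, and in the s-shaped body for 6 members above and 3 below the duct, against 21.3% and 22.6%. These comparisons share the collecting duct arrays. The plots of levels on each array and of the differences show these orders.

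**Figure D1:**
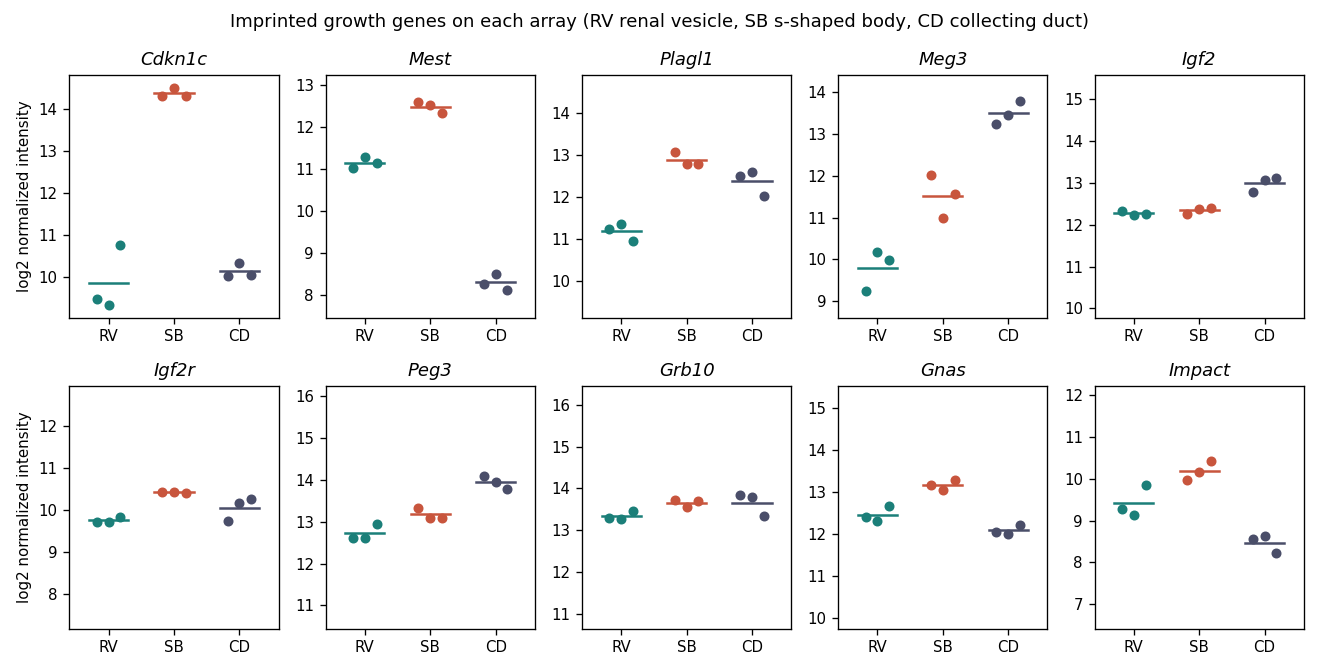
Log2 normalized intensity (y axis) of the 10 imprinted growth genes on each of 9 arrays, grouped by structure (x axis). Points are arrays, horizontal lines are means of 3 arrays, and every panel spans the same number of log2 units; Cdkn1c has the widest range of means, 4.53, and Grb10 the narrowest, 0.32.

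**Figure D2:**
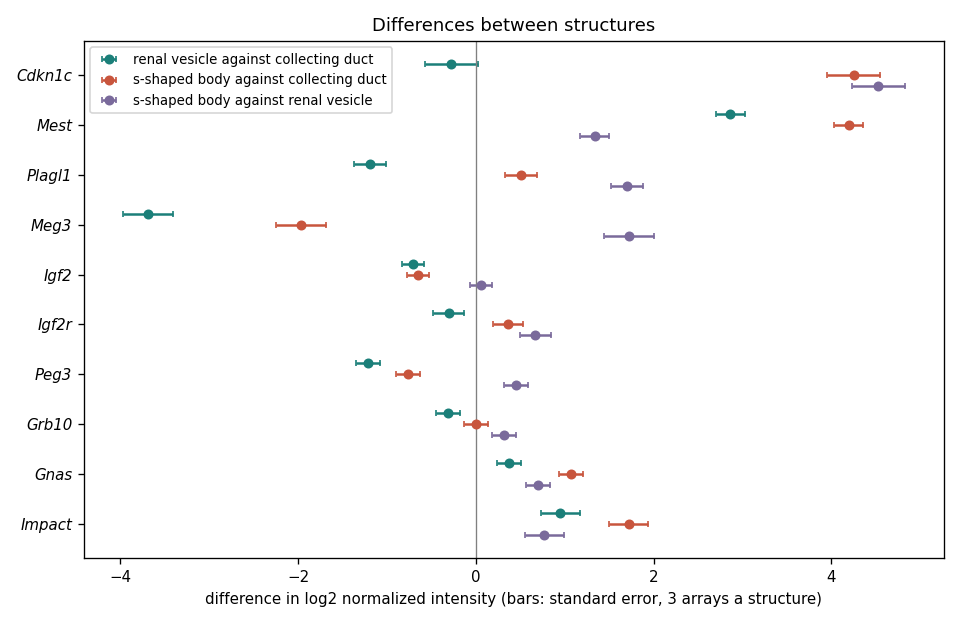
Difference in log2 normalized intensity (x axis) between structures for each gene (y axis), with bars for the standard error. Violet points, s-shaped body against renal vesicle, all lie at or right of 0, while green and red points, the comparisons with the collecting duct, lie on both sides.

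Among the maternally expressed genes, Cdkn1c had the widest range of means when each gene was read from its brightest probe set, at 4.53, while another Meg3 probe set spanned 5.51. It encodes p57KIP2, an inhibitor of cyclin-dependent kinases that holds cells out of division and is known as a nuclear protein of podocytes. Its probe set read 664, 607 and 1709 intensity units on renal vesicle arrays 1 to 3 as deposited. On the s-shaped body arrays it read 18981, 19945 and 22797, and on the collecting duct arrays 1061, 1276 and 991. The s-shaped body arrays were far above all others, and renal vesicle and collecting duct overlapped only through vesicle array 3.

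On the normalized scale the Cdkn1c level of the s-shaped body was 23.0-fold that of the renal vesicle (log2 difference 4.53, SE 0.30) and 19.1-fold that of the collecting duct (4.25, SE 0.30). Among the 7998 genes tested, ordered from the largest difference between s-shaped body and renal vesicle, Cdkn1c ranked 15. Renal vesicle and collecting duct differed by -0.27 (SE 0.30). Without vesicle array 3 that difference was -0.72 and past the threshold, and without that array and duct array 2 it was -0.62. No other member difference changed its side of the threshold when both arrays were left out. The array with the high Cdkn1c value was the vesicle array with the high podocyte marker sum, as the plot of Cdkn1c and marker sums shows. Its part in the Cdkn1c value was not tested.

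**Figure D3:**
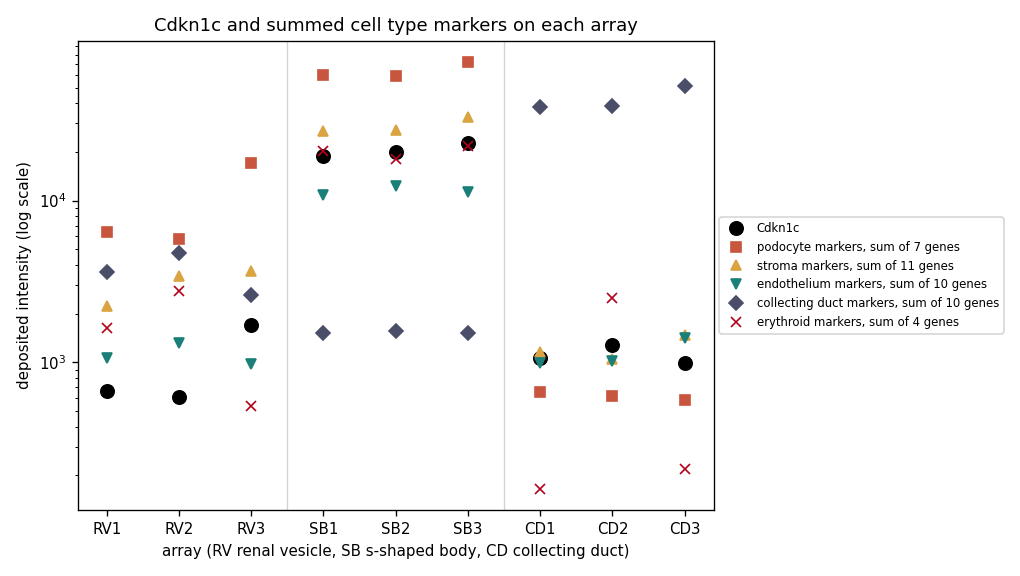
Deposited intensity (y axis, log scale) of Cdkn1c and of summed marker genes on each array (x axis; RV renal vesicle, SB s-shaped body, CD collecting duct). Podocyte, stroma, endothelium and erythroid sums are all highest on the s-shaped body arrays, where Cdkn1c reads 18981 to 22797, and vesicle array 3 has the highest podocyte sum and Cdkn1c value of its group.

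The s-shaped body arrays with high Cdkn1c also had high levels of podocyte markers and of markers of stroma, endothelium, erythroid cells and macrophages. All 7 measured podocyte markers and all 10 measured endothelium markers were higher in the s-shaped body than in the renal vesicle. So were 10 of 11 stroma markers, with Meis1 the exception (0.06, adjusted p = 0.84). The counts hold only markers that passed the filter, some only through the s-shaped body arrays. The summed stroma markers read 26982 to 32913 in the s-shaped body, 2231 to 3666 in the renal vesicle and 1052 to 1474 in the duct. Endothelium sums were 10816 to 12329, 978 to 1321 and 989 to 1420 in the same order. Erythroid sums of 4 genes were 18173 to 21832, 532 to 2753 and 165 to 2505, and the 2 measured macrophage genes summed to 2954 to 3488, 283 to 493 and 522 to 645. Which cells gave the Cdkn1c signal was not tested, and in such bulk samples fewer cells of a type and less RNA per cell cannot be told apart. No summed marker list was at 0 on any array.

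The genes whose profile over the 9 arrays was nearest to that of Cdkn1c were Selenop, Mmp23, Htra1, Synpo and Coro2b. Their root mean square differences from it, after centring each gene on its own mean, were 0.37, 0.38, 0.40, 0.40 and 0.42 log2 units. The median over the other 7988 genes was 2.16. The 9 arrays fall into 3 structures, so nearness mostly means the same order and spacing of 3 levels.

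Grb10 encodes an adaptor that restrains signalling from the insulin and IGF receptors, and it was bright and nearly level. Its brightest probe set read 10387, 9979 and 12721 intensity units in the renal vesicle, 13099, 11252 and 13792 in the s-shaped body and 11385, 13115 and 11754 in the collecting duct. The ranges of neighbouring structures in the order of means overlapped on the normalized scale. Its log2 differences were 0.32 (SE 0.14) for s-shaped body against renal vesicle, 0.00 (SE 0.14) for s-shaped body against duct and -0.32 (SE 0.14) for vesicle against duct. The last turned to 0.02 with median centring, where the median of all genes moved from 0.01 to 0.11.

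Igf2r encodes the receptor that takes up IGF2 and carries it to lysosomes, which lowers the amount of the growth factor. Its signal was 787, 800 and 855 in the renal vesicle, 1357, 1371 and 1301 in the s-shaped body and 877, 1157 and 1140 in the collecting duct. In this brightest probe set the s-shaped body was above both other structures on every array, and vesicle and duct overlapped. The log2 difference between s-shaped body and renal vesicle was 0.67 (SE 0.17), a 1.59-fold higher level, and the other probe set above the filter gave 0.74 (SE 0.21). Against the duct the s-shaped body differed by 0.36 (SE 0.17), short of the threshold. There the other probe set gave 0.15 (SE 0.21), and its s-shaped body and duct arrays overlapped. The antisense transcript Airn, which overlaps Igf2r, differed by -0.11 (adjusted p = 0.71) in the same comparison.

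Meg3, a long noncoding RNA of an imprinted domain on chromosome 12, had the largest difference in favour of the duct in the set. Its brightest probe set read 564, 1120 and 967 in the renal vesicle, 4037, 1980 and 2968 in the s-shaped body and 7997, 10463 and 16466 in the collecting duct. The 3 structures did not overlap. On the normalized scale Meg3 was 12.9-fold lower in the renal vesicle than in the duct (log2 difference -3.69, SE 0.28), and its rank from the lowest of 7998 genes was 39. In the s-shaped body it was 3.90-fold lower than in the duct (-1.96, SE 0.28) and 3.31-fold higher than in the vesicle (1.73, SE 0.28).

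Meg3 had 5 probe sets, of which 4 passed the filter, and all 5 had their highest mean in the duct. The size of the difference depended on the probe set, from -1.68 (SE 0.23) to -5.51 (SE 0.36) for renal vesicle against duct among those that passed. Between s-shaped body and renal vesicle the 4 gave 0.14 to 2.23, and the arrays overlapped for the dimmest of them. That dimmest set passed the filter only through the duct arrays. The brightest set carries the suffix that marks probes shared with other transcripts, so its level may include other RNA. The next set, free of that suffix, gave the larger differences of -5.51 and 2.23, as the plot of genes with several probe sets shows.

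**Figure D4:**
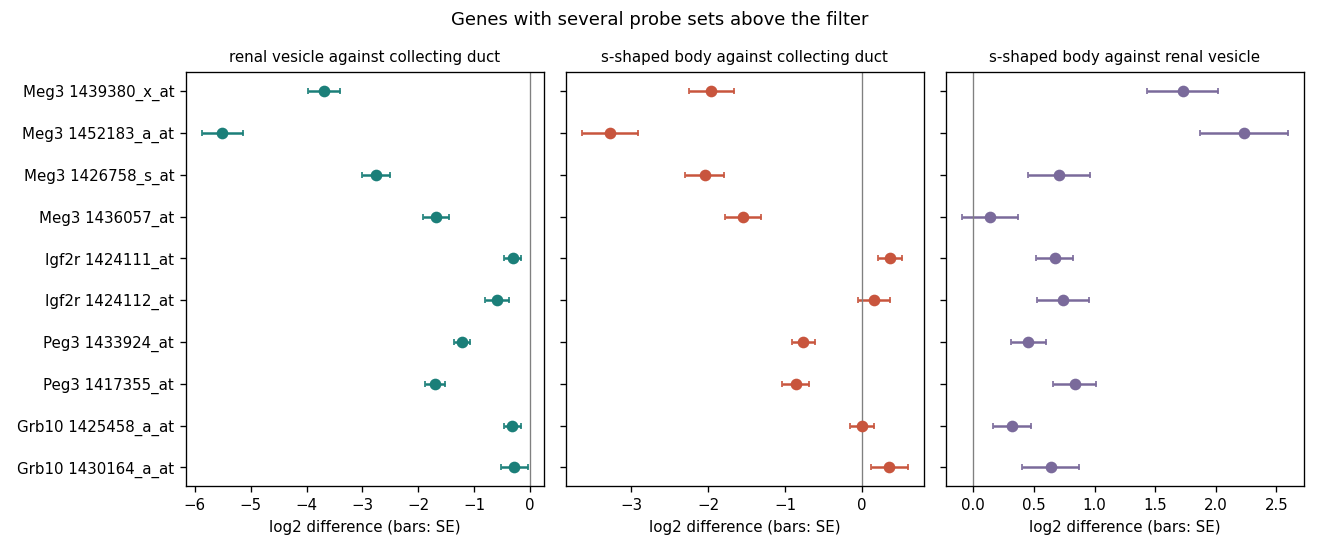
Log2 difference (x axes) for each probe set above the filter (y axis) of the genes that had several, in the 3 comparisons, with bars for the standard error. All Meg3 and Peg3 probe sets lie below 0 against the collecting duct, while those of Igf2r and Grb10 lie between -0.59 and 0.36.

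Promoter sequence was available from RefSeq (GRCm38.p6) for 8 of the 10 genes, in 18 windows of 300 bases that run from 250 bases before to 50 bases after a transcript start. They were searched on both strands for TGCCGC, the hexamer bound in its methylated form by ZFP57, a zinc-finger protein that protects imprints, and for GGGGCCCC, a sequence bound by the PLAGL1 protein. A match in such a window is a description and not a binding site. TGCCGC stood in 6 of the 18 windows and in windows of 5 genes, Mest, Plagl1, Meg3, Igf2 and Grb10, against 11.6% of all 32851 promoter windows. Mest windows that overlap almost fully and hold the same matches are counted separately among the 6. The windows of the set held a median of 16.5 CpG dinucleotides against 7 over all windows, and the hexamer itself contains CpG. GGGGCCCC stood in the window of Peg3, against 1.08% of all windows. The motifs share no overlapping bases in these windows.

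The Meg3 window is shown for the member with the largest difference in favour of the duct, with the hexamer, here read from the other strand as GCGGCA, in capitals.
Meg3 promoter, chr12:109540746-109541045, plus strand: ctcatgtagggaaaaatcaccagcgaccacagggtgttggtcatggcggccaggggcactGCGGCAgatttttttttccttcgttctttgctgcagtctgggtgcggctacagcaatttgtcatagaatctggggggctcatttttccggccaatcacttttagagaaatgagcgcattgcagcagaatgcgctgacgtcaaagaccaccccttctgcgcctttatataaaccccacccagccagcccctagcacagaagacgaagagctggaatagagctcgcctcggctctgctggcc

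Rian, another maternally expressed noncoding RNA of the same chromosome 12 domain, was low where Meg3 was low. It read 57.1, 93.7 and 120 in the renal vesicle, 168, 109 and 128 in the s-shaped body and 1098, 1289 and 1142 in the duct. The duct arrays were all far above the rest. Rian was lower than in the duct by a log2 difference of -3.30 (SE 0.22, limma adjusted p = 3.9e-07) in the vesicle and of -2.95 (SE 0.22, adjusted p = 5.1e-07) in the s-shaped body. Between s-shaped body and vesicle it differed by 0.34 (SE 0.22, adjusted p = 0.25), with overlapping arrays. Dlk1, the paternally expressed gene of that domain, read 66.7 to 157 over the 9 arrays and did not pass in any comparison (adjusted p = 0.87 to 0.98).

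Among the paternally expressed genes, Igf2 encodes the main fetal growth factor of the insulin family. Its brightest probe set read 5339, 4981 and 5206 in the renal vesicle, 4791, 5147 and 5288 in the s-shaped body and 6165, 8158 and 10041 in the collecting duct. The nephron structures overlapped, and the duct lay above both. The duct also varied most, with an SD of 1938 intensity units against 181 in the vesicle and 257 in the s-shaped body (n = 3). The log2 difference from the duct was -0.71 (SE 0.13) in the vesicle and -0.65 (SE 0.13) in the s-shaped body, which corresponds to 1.64-fold and 1.57-fold lower levels. The other Igf2 probe set, below the filter, gave -1.04 (SE 0.29) and -1.03 (SE 0.29). The 5 nearest profiles to Igf2 were those of Ncoa3, Npc2, Pam, Phf19 and Krt1, at 0.09 to 0.12 log2 units against a median of 0.49.

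Mest, also called Peg1, encodes a protein of the hydrolase fold and is known from mesodermal tissues of the embryo. It read 2145, 2485 and 2230 in the renal vesicle, 6031, 5696 and 5046 in the s-shaped body and 285, 345 and 258 in the duct. The structures did not overlap, and the duct was dim throughout. Mest was 7.26-fold higher in the vesicle than in the duct (log2 difference 2.86, SE 0.16), and in the s-shaped body it was 18.3-fold above the duct (4.20, SE 0.16) and 2.52-fold above the vesicle (1.34, SE 0.16). It ranked 75 and 72 from the top among the 7998 genes in the comparisons with the duct. Stroma markers were higher than in the duct in the same samples, 7 of 11 in the vesicle, where 1 was lower, and 11 of 11 in the s-shaped body. Of all genes, 15.6% were higher and 15.9% lower in the vesicle, and 16.9% were higher in the s-shaped body. The stroma sum read 1052 to 1474 in the duct, 2231 to 3666 in the vesicle and 26982 to 32913 in the s-shaped body. Some stroma markers passed the filter only through the s-shaped body arrays. The part of stroma in the Mest value was not tested. The nearest profiles were those of Nid2, Ccdc80, Meis2, Vegfc and Ptprd, at 0.16 to 0.36 log2 units against a median of 1.79. Of these only Meis2 is on the stroma marker list.

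Mest has 3 windows in the promoter table, 2 of which differ by a shift of a few bases and hold the hexamer at the same places. The first of these is shown for the gene with the largest difference between duct and s-shaped body among the paternally expressed members, with both matches in capitals.
Mest promoter, chr6:30737800-30738099, plus strand: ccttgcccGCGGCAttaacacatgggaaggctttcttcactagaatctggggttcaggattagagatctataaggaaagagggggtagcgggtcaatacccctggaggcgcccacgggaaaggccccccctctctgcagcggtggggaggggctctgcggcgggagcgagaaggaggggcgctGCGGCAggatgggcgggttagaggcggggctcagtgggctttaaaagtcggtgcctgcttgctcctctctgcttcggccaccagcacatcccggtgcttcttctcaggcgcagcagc

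Plagl1, also called Zac1, encodes a zinc-finger transcription factor that slows the cell cycle and is known to act on other imprinted genes in the mouse. It read 2469, 2638 and 1976 in the renal vesicle, 8386, 6805 and 7112 in the s-shaped body and 5212, 5828 and 4170 in the collecting duct. The vesicle was below the duct and the s-shaped body above it on every array. The log2 differences were -1.19 (SE 0.18) for vesicle against duct, 0.51 (SE 0.18) for s-shaped body against duct and 1.70 (SE 0.18) for s-shaped body against vesicle, a 3.25-fold higher level. The difference of 0.51 was past the threshold but not in 10 of 21 alternatives, where it ran from 0.32 to 0.56. The other Plagl1 probe set read 3.60 to 29.1 and measured no structure above the filter. The brighter set carries the suffix for probes shared with other transcripts.

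The nearest profiles to Plagl1 were those of Anxa5, Irs1, Abca1, Hipk3 and Sertad2, at 0.12 to 0.21 log2 units against a median of 0.83. The Plagl1 window is shown with its hexamer in capitals.
Plagl1 promoter, chr10:13090582-13090881, plus strand: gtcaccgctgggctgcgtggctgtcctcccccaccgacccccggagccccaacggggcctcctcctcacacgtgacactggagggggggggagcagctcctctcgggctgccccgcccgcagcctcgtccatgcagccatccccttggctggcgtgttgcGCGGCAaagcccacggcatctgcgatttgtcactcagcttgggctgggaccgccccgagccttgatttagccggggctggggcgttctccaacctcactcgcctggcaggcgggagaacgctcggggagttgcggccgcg

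Peg3 encodes a large zinc-finger protein and, like Meg3, was highest in the duct. Its brightest probe set read 6626, 6527 and 8550 in the renal vesicle, 9906, 8406 and 8770 in the s-shaped body and 13340, 14533 and 16380 in the duct. The structures kept this order without overlap after normalization. Peg3 was 2.32-fold lower in the vesicle than in the duct (log2 difference -1.22, SE 0.13) and 1.70-fold lower in the s-shaped body (-0.76, SE 0.13). Its 0.45 (SE 0.13) between s-shaped body and vesicle dropped below the threshold in 6 of 21 alternatives, with 0.18 under median centring. The other probe set above the filter gave -1.70, -0.86 and 0.84 in the same order. The Peg3 window is the only one of the set with the PLAGL1 sequence, shown in capitals.
Peg3 promoter, chr7:6730370-6730669, minus strand: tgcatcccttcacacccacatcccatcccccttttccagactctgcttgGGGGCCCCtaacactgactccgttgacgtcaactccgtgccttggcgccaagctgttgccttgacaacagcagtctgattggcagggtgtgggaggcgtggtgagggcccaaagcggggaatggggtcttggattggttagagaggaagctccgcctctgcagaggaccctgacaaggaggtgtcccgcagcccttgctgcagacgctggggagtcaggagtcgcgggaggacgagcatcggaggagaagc

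Impact, which encodes an inhibitor of the amino acid sensor kinase GCN2, followed the order of Mest on a smaller scale. It read 577, 525 and 878 in the renal vesicle, 990, 1133 and 1324 in the s-shaped body and 361, 380 and 279 in the duct. The structures did not overlap. The log2 differences were 0.95 (SE 0.22) for vesicle against duct, 1.72 (SE 0.22) for s-shaped body against duct and 0.77 (SE 0.22) for s-shaped body against vesicle. The last was 0.62 to 0.70 and short of the threshold without vesicle array 1, vesicle array 2 or s-shaped body array 3.

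Gnas encodes the stimulatory G protein subunit that couples hormone receptors to cyclic AMP, beside other products of the same locus. Its only probe set above the filter read 5736, 5318 and 6938 in the renal vesicle, 8750, 8181 and 10093 in the s-shaped body and 4062, 4042 and 4817 in the duct. The structures did not overlap. The s-shaped body exceeded the duct 2.10-fold in Gnas (log2 difference 1.07, SE 0.13) and the vesicle 1.63-fold (0.70, SE 0.13). For vesicle against duct the 0.37 (SE 0.13) missed the threshold, and it passed in 6 of 21 alternatives with 0.37 to 0.63. The other 3 probe sets read 1.64 to 87.8, and the arrays of the structures overlapped in each. Which Gnas product each probe set reads is not given in the sources used here.

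Of the 24 probe sets, 16 passed the filter and 8 did not, the latter spread over Plagl1, Meg3, Igf2, Peg3, Grb10 and Gnas. All 10 genes had a probe set that passed. Cdkn1c, Mest and Impact had a single probe set, so no second measurement bears on their values.

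Other imprinted genes were counted from a list of 78, of which 32 passed the filter. Whether each listed gene is imprinted in the embryonic kidney was not measured. Against the duct, 2 were higher and 11 lower in the renal vesicle, and for the s-shaped body 5 lay above and 9 below the duct, with medians of -0.36 and -0.20 against 0.01 and -0.03 over all genes. Between s-shaped body and vesicle 9 were higher and 1 lower, with a median of 0.25 against -0.03. The shares of all genes called were those given above, with 17.8% lower in the s-shaped body than in the vesicle. The 2 higher genes of the vesicle became 1 without vesicle array 1, vesicle array 2 or duct array 1. In the s-shaped body, the 9 genes below the duct became 5 without duct array 2 or without duct array 3, the 5 above it became 3 without s-shaped body array 2, and the 9 above the vesicle became 5 without vesicle array 1.

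Several of these genes were highest in the duct. Ddc, which encodes aromatic amino acid decarboxylase, was lower in the vesicle by -2.49 (SE 0.22, limma adjusted p = 3.6e-06) and in the s-shaped body by -3.06 (SE 0.22, adjusted p = 3.9e-07). Slc38a4, an amino acid transporter gene, and Gab1, an adaptor gene of receptor tyrosine kinases, were lower in the vesicle by -1.95 (SE 0.19, adjusted p = 8.9e-06) and -1.58 (SE 0.16, adjusted p = 1.5e-05). Slc22a18, a transporter gene on chromosome 7 near Cdkn1c, was lower in the s-shaped body by -2.39 (SE 0.32, adjusted p = 9.3e-05). Its s-shaped body arrays read 12.8, 12.4 and 58.8, its vesicle arrays 18.7, 24.7 and 8, and its duct arrays 265, 220 and 243. Slc22a18 was thus dim in both nephron structures. Cdkn1c differed from the duct by 4.25 in the s-shaped body but by -0.27 in the vesicle. A relation between these genes was not tested. Slc22a18 passed the filter only through the duct arrays. The genes higher in the vesicle than in the duct were Asb4 (1.82, adjusted p = 0.0048) and Tssc4 (0.95, adjusted p = 0.023).

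In the s-shaped body Cd81, a tetraspanin gene, was higher by 1.56 (SE 0.18, adjusted p = 1.9e-05) than in the duct and by 1.55 (SE 0.18, adjusted p = 3.2e-05) than in the vesicle. Pon3 (1.17, SE 0.22, adjusted p = 0.0013), Osbpl5 (2.61, SE 0.52, adjusted p = 0.0019) and Sgce (1.12, SE 0.24, adjusted p = 0.0034), which encode a paraoxonase, a lipid-binding protein and a sarcoglycan, were higher than in the vesicle. Ndn, which encodes the growth suppressor necdin, was higher by 0.41 (SE 0.12, adjusted p = 0.020) than in the duct and by 0.34 (SE 0.12, adjusted p = 0.041) than in the vesicle. Between vesicle and duct Ndn differed by 0.06 (adjusted p = 0.72). Peg10 read 3.55 to 25.3 and was below the filter, and H19 had no probe set with that single symbol in the annotation used here.

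**Figure D5:**
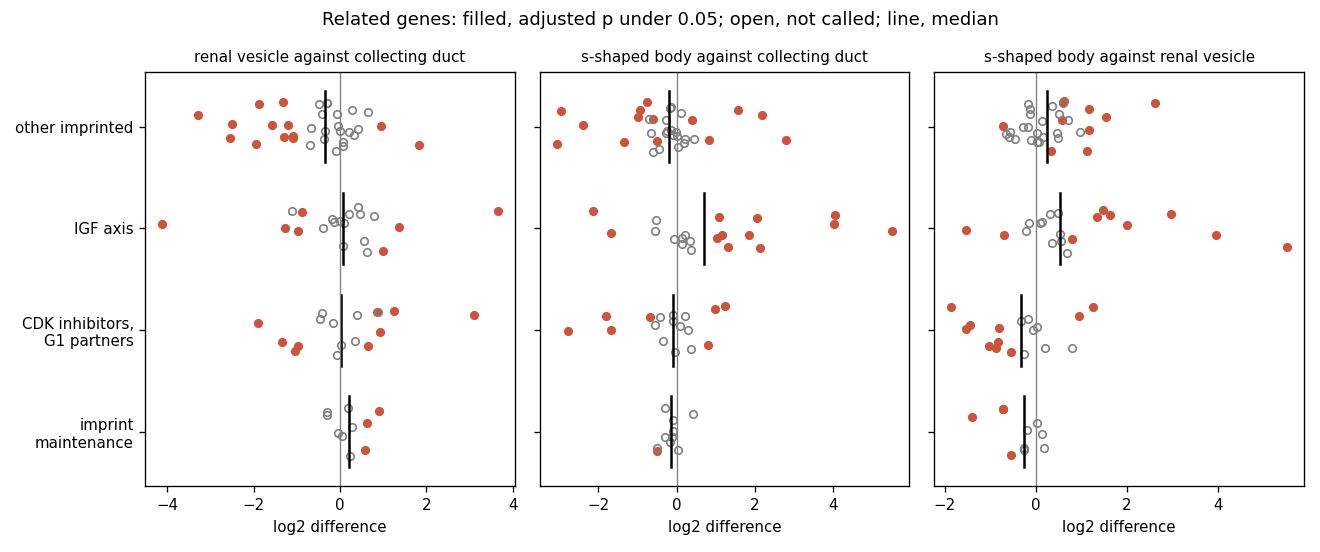
Log2 difference (x axes) of the measured genes of 4 related lists (y axis) in the 3 comparisons, filled where the limma adjusted p is under 0.05, with a line at each list's median. Other imprinted genes lie mostly left of 0 for renal vesicle against collecting duct, with 11 lower and 2 higher.

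Genes that act with Igf2, Igf2r and Grb10 included several with large differences in the s-shaped body. Of 20 measured genes of the IGF axis, 3 were higher and 4 lower in the vesicle than in the duct, against 15.6% and 15.9% of all genes. In the s-shaped body 10 were above and 2 below the duct, and 8 above and 2 below the vesicle. Of all genes, 16.9% were above and 15.9% below the duct, and 18.5% above and 17.8% below the vesicle. Igfbp3, Htra1, Igf1 and Pappa passed the filter only through the s-shaped body arrays, so they were counted because they were high there. These arrays were also higher in stroma and endothelium markers, as given above. The medians were 0.07, 0.69 and 0.54. The binding protein gene Igfbp3 was higher by 5.51 (SE 0.30) in the s-shaped body than in either other structure (adjusted p = 5.1e-08 against the duct and 2.1e-07 against the vesicle). Htra1, a protease gene, was higher by 4.04 (SE 0.22, adjusted p = 5.4e-08) and 3.95 (SE 0.22, adjusted p = 2.7e-07). Igfbp4 was higher than in the duct in both nephron structures, by 3.66 (SE 0.15, adjusted p = 9.1e-09) and 4.01 (SE 0.15, adjusted p = 4.1e-09). Igfbp5 was lower than in the duct in both, by -4.12 (SE 0.17, adjusted p = 9.4e-09) and -2.12 (SE 0.17, adjusted p = 1.1e-06), and higher in the s-shaped body than in the vesicle by 1.99 (SE 0.17, adjusted p = 3.8e-06).

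The receptor gene Igf1r was higher in the s-shaped body than in the duct (1.32, SE 0.32, adjusted p = 0.0065), with 0.63 (adjusted p = 0.15) for vesicle against duct and 0.68 (adjusted p = 0.11) for s-shaped body against vesicle. Irs1, the substrate that passes on the receptor signal, was lower in the vesicle than in the duct by -1.27 (SE 0.17, adjusted p = 0.00013) and higher in the s-shaped body than in the vesicle by 1.48 (SE 0.17, adjusted p = 3.7e-05). Igfbp2 was higher in the vesicle than in the duct by 1.00 (SE 0.25, adjusted p = 0.0087) and lower in the s-shaped body than in the vesicle by -1.53 (SE 0.25, adjusted p = 0.00047), with -0.53 (adjusted p = 0.13) against the duct. Genes for proteins that bind Igf2 mRNA split. Igf2bp1 was higher than in the duct in the vesicle (1.38, SE 0.29, adjusted p = 0.0029) and in the s-shaped body (1.17, SE 0.29, adjusted p = 0.0073), with -0.21 (adjusted p = 0.61) between the nephron structures. Igf2bp3 was lower than in the duct by -0.97 (SE 0.20, adjusted p = 0.0028) in the vesicle.

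Among the other inhibitors of cyclin-dependent kinases named here, Cdkn2c alone was called higher in the s-shaped body. Cdkn1b, which encodes p27KIP1, differed by -0.06, -0.04 and 0.02 in the 3 comparisons (adjusted p = 0.87, 0.93 and 0.95). Cdkn1a, which encodes p21CIP1, was lower than in the duct in the vesicle (-1.35, SE 0.26, adjusted p = 0.0020) and in the s-shaped body (-1.66, SE 0.26, adjusted p = 0.00034), with -0.32 (adjusted p = 0.39) between these. Cdkn2b was lower than in the duct as well, by -1.90 (SE 0.29, adjusted p = 0.00035) and -2.78 (SE 0.29, adjusted p = 1e-05). It passed the filter only through the duct arrays. Cdkn2c was higher in the s-shaped body than in the vesicle by 1.26 (SE 0.17, adjusted p = 0.00011), against 4.53 for Cdkn1c.

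Several cyclin and kinase genes, whose products these inhibitors bind, were lower in the s-shaped body than in the vesicle. Of 17 measured inhibitors and G1 partners, 2 were above and 8 below the vesicle level in the s-shaped body (median -0.32). Of all genes, 18.5% were above and 17.8% below. The 2 above were Cdkn2c and the cyclin gene Ccnd3 (0.95, SE 0.28, adjusted p = 0.017). The list had 5 above and 4 below for vesicle against duct (median 0.02), against 15.6% and 15.9% of all genes. For s-shaped body against duct it had 3 and 4 (median -0.08), against 16.9% and 15.9%. The cyclin gene Ccnd1 was lower in the s-shaped body than in the vesicle by -1.86 (SE 0.17, adjusted p = 7.2e-06), Ccne1 by -1.54 (SE 0.21, adjusted p = 0.00011) and the kinase gene Cdk4 by -1.02 (SE 0.16, adjusted p = 0.00033). Against the duct Ccnd1 was higher in the vesicle by 3.10 (SE 0.17, adjusted p = 9.7e-08) and in the s-shaped body by 1.24 (SE 0.17, adjusted p = 0.00012). Cdk4 was higher in the vesicle by 0.92 (SE 0.16, adjusted p = 0.00077), and Ccnd2 was lower in the s-shaped body than in the duct by -1.79 (SE 0.19, adjusted p = 1.4e-05).

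Genes that keep imprints through cell division were also measured. Of 10 that passed the filter, 3 were higher and 0 lower in the vesicle than in the duct. In the s-shaped body 0 were higher and 1 lower than in the duct, and 0 and 4 against the vesicle. The medians were 0.20, -0.14 and -0.26 in that order. Of all genes, 15.6% were higher and 15.9% lower in the first comparison, 16.9% and 15.9% in the second and 18.5% and 17.8% in the third. Trim28, the corepressor that ZFP57 recruits, was higher in the vesicle than in the duct by 0.63 (SE 0.16, adjusted p = 0.0098) and lower in the s-shaped body than in the vesicle by -0.72 (SE 0.16, adjusted p = 0.0035). Uhrf1, which guides the maintenance methylase to newly copied DNA, gave 0.91 (SE 0.19, adjusted p = 0.0036) and -1.40 (SE 0.19, adjusted p = 0.00015), and the insulator protein gene Ctcf gave 0.57 (SE 0.16, adjusted p = 0.017) and -0.54 (SE 0.16, adjusted p = 0.020). Setdb1, a histone methyltransferase gene, was lower in the s-shaped body than in the duct by -0.50 (SE 0.16, adjusted p = 0.034) and than in the vesicle by -0.73 (SE 0.16, adjusted p = 0.0040). Dnmt1, the maintenance methylase gene, differed by -0.05, -0.30 and -0.25 and did not pass (adjusted p = 0.89, 0.35 and 0.43), and Trim28 differed by -0.10 (adjusted p = 0.68) between s-shaped body and duct.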

How the data were processed

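Per the labels' protocols, RNA from microdissected structures was extracted with TRIzol and amplified in 2 rounds before hybridization. The authors deposited 1 linear intensity for each probe set and array, and the submitters' processing notes name GCOS with no version. The authors had scaled the arrays to a common mean: after trimming 2% at each end, array means were 500.19 to 500.25. No detection calls were used, and the number of arrays limits the precision. Array medians were 112.2 to 144.8 intensity units. Correlations across genes, which are not independent replicates, were 0.939 to 0.982 within and 0.77 to 0.868 between structures.

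From the deposited intensity, log2(value + 26) was taken, 26 being the 20th percentile of all values, and the log2 values were quantile normalized. The pseudocount understates folds of dim genes. The annotation of 2016 gave 20380 probe sets exactly 1 symbol, 691 several and 1555 none, beside 64 controls, and the identifiers of 20351 were in a RefSeq table of GRCm38.p6. Probe sets above their array's median on at least 3 arrays were kept, 11597 in all, and the brightest stood for its gene, which left 7998 genes. A gene dim in the other structures passes only where it is bright, so counts of listed and marker genes depend partly on this filter. Values for further probe sets come from a fit over every probe set with 1 symbol. All 9 arrays were fitted with limma 3.58.1 in R 4.3.3 (eBayes with trend, two-sided, 6 residual degrees of freedom), p-values were adjusted by Benjamini-Hochberg over all genes within a comparison, and an adjusted p under 0.05 is the threshold. Standard errors are limma's. The procedure was tested on simulated data.

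The members, lists and tests were chosen with earlier results of these data known. In each comparison up to 4 called genes of each related list with the smallest adjusted p are named, with fixed anchors (H19, Dlk1, Peg10, Ndn, Igf1r, Igfbp2, Igf2bp1, Cdkn1a, Cdkn1b, Ccnd1, Dnmt1 and Trim28) and the 5 nearest profiles of 4 members. Airn, Meis1, Wnt4, Pax8, Wnt11, Hoxb7, Aqp2, Asb4, Tssc4, Ccnd3 and Commd1 were named after their values were seen. Figures were drawn with matplotlib 3.10.9 under Python 3.11.15. Alternatives were other pseudocounts, scalings, filters and probe set choices, no trend, only the groups compared, a replicate block, and leaving out arrays.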

Additional observations from a re-analysis of the deposited data

Results flagged for a closer look

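For 6 genes named in the text, all renal vesicle arrays lay on one side of the collecting duct arrays and all s-shaped body arrays on the other, on the normalized scale. How many of all genes do so was not counted, and several of the 6 were named for small adjusted p in these same fits. Nothing is read from the number. Plagl1 was the member among them, below the duct in the vesicle and above it in the s-shaped body, with a log2 difference of 1.70 between s-shaped body and vesicle that is given without a test. Cdkn2c ran the same way (1.26, limma adjusted p = 0.00011). Ccne1 (-1.54, adjusted p = 0.00011), Igfbp2 (-1.53, adjusted p = 0.00047), Uhrf1 (-1.40, adjusted p = 0.00015) and Setdb1 (-0.73, adjusted p = 0.0040) ran the opposite way, above the duct in the vesicle and below it in the s-shaped body. Not every difference from the duct passed. Cdkn2c gave -0.46 (adjusted p = 0.055) in the vesicle, and Igfbp2 gave -0.53 (adjusted p = 0.13) in the s-shaped body. Uhrf1 in the s-shaped body and Setdb1 in the vesicle were not called either. As deposited, Setdb1 overlapped, at 681 on vesicle array 1 against 691 on duct array 1. Both comparisons with the duct use the same duct arrays.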

How the results depend on the processing

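Each of the 30 member differences was recomputed under 21 alternatives, 630 values in all. For members the threshold serves here only to describe how far the values moved. Of these 597 stayed on the same side of the threshold, 19 fell short of it and 14 newly passed, while 6 changed sign, none past the threshold. The sign changes were those of Grb10 and Igf2, at -0.18 to 0.02. Counts of all genes called were 1837 to 2500, 1918 to 2704 and 2131 to 3401 when arrays were left out singly, for vesicle against duct, s-shaped body against duct and s-shaped body against vesicle. Without vesicle array 3 and duct array 2 the first was 1542 of 7688 against 2519 of 7998. Median centring gave 1560 higher and 1045 lower there (59.9% higher) against 1250 and 1269 (49.6%). Testing each probe set on its own gave 8 and 7 of 16 member probe sets lower than in the duct in the vesicle and s-shaped body. It gave 13 of 16 higher in the s-shaped body than in the vesicle, against 4, 3 and 8 genes. Over all probe sets 1605, 1631 and 1932 of 11597 were called in the same directions. Meg3 supplied several of the 16, and probe sets of the same gene are not independent. For other imprinted genes, leaving out single arrays gave 1 to 3 higher in the vesicle than in the duct, 3 to 5 higher and 5 to 10 lower in the s-shaped body than in the duct, and 5 to 11 higher and 0 to 3 lower in the s-shaped body than in the vesicle. Without both doubted arrays the first of these was 1 and the lower count against the duct 5, and without the intensity trend the higher count in the s-shaped body against the duct was 3. The lone gene lower in the s-shaped body than in the vesicle, Commd1, stood beside counts of 2 with a pseudocount of 1, 0 with no further normalization, 4 with only the groups compared and 3 with the replicate block. The replicate numbers did not pair the arrays: deviations of same-numbered arrays correlated at -0.034 to 0.161, and not every array matched its own number best. With the replicate block 2605, 2646 and 2997 genes were called, against 2519, 2626 and 2905. The cause of these shifts was not tested.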
